A study of Mus musculus with 12 samples.

Results

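Retina pools rich in lens RNA were compared with retina pools poor in it, among 12 libraries of E15.5 mouse retina. The libraries were chosen by the measured level of Cryaa, the gene of αA-crystallin, in CPM, its counts scaled to a common library total. The 5 libraries at or above 100 CPM are called lens-rich here and the 5 under 10 CPM are called lens-poor, so 10 of 12 samples entered. Lens-rich were TSMF5 at 907 CPM of Cryaa, TSMM5 at 429, TSCM5 at 355, TSMM4 at 252 and TSCF4 at 116. Lens-poor were TSMF4 at 3.46 CPM, TSCM6 at 2.27, TSCF6 at 1.70, TSMF6 at 1.5 and TSMM6 at 0.918. The libraries left out, between the limits, were TSCF5 at 82.6 CPM and TSCM4 at 25.1 CPM. In CPM the libraries nearest to the limits were among those used, TSCF4 to the upper limit and TSMF4 to the lower one. In these names TSM marks mutant and TSC wildtype pools, the next letter the sex (F or M), and the digit the replicate number.

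Each library was 1 pool of 12 retinas from C57BL/6 embryos of 1 genotype and sex. Mutant embryos carried floxed Tbr2 alleles with Six3-Cre, a transgene that drives Cre recombinase in the developing eye field, and the other embryos were wildtype. Retinas of several litters went into the pools, per the series' design text, and whether pools shared litters is not given. Each side held 3 mutant and 2 wildtype pools. The lens-rich side had 3 male and 2 female pools and the lens-poor side 2 male and 3 female pools. Lens-rich pools carried the replicate numbers 4 and 5 alone, while 4 of the 5 lens-poor pools carried number 6, so replicate number and lens side cannot be told apart. Total counts ran from 18514607 to 27072825 over the 12 libraries, and 16903 genes (TSMM6) to 19242 genes (TSMF4) had at least 1 read. The mitochondrial transcript mt-Nd6 split the libraries into a high and a low set, with 3 of 5 lens-rich and 2 of 5 lens-poor libraries in the high set.

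The lens lies against the embryonic retina and is made of 2 cell forms. A single layer of epithelial cells covers its front and divides, and cells that leave this layer elongate into fibres that fill the lens. Fibres are packed with crystallins, are joined by their own gap junction and water channels, and are wrapped with the epithelium in a capsule of basement membrane. Foxe3 is a transcription factor gene of the epithelium, and Maf-family and Prox1 factors act in fibres. In bulk RNA such as these pools, fewer cells of a type and less RNA per cell cannot be told apart.

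The stretches of DNA before 4 of the genes that the comparison turns on are shown because promoters of fibre genes are a known place of Maf-family binding. Each is the 250 bases before a transcription start in RefSeq on the strand of the gene (GRCm38.p6, the mm10 build). Capitals mark the letters TGCTGA, the Maf half-site, or TCAGCA, its form on the other strand. The windows are Cryaa at chr17:31677681-31677930 (plus strand), Mip at chr10:128225560-128225809 (plus strand), Capn3 at chr2:120476659-120476908 (plus strand, the downstream of its 2 starts, inside the gene), and Foxe3 at chr4:114926068-114926317 (minus strand).
Cryaa: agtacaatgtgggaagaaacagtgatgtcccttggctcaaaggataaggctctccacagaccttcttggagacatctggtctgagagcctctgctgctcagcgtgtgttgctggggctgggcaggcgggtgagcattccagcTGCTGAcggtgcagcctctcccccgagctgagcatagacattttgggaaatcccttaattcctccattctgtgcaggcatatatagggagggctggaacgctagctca
Mip: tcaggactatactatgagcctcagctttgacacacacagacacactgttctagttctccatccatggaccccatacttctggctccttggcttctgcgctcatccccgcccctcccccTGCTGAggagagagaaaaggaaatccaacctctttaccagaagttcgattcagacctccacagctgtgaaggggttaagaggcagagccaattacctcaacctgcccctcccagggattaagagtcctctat
Capn3: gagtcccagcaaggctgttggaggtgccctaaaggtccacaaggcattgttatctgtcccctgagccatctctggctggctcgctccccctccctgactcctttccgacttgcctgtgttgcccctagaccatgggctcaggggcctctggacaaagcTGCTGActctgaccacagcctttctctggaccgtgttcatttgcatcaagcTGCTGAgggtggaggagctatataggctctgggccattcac
Foxe3: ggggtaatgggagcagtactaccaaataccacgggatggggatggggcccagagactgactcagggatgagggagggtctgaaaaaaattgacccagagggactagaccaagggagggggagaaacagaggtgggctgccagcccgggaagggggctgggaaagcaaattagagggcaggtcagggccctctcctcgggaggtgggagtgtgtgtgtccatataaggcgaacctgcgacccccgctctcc

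Cryaa holds the motif with its first base at -108 from the start, Mip at -132 and this start of Capn3 at -92 and -41, while these letters are not in the window of Foxe3. Of the 14 higher crystallin genes with a window, 10 held it. Of the 11 other higher genes with a window, 4 held it, in 5 of 15 windows. Over all 32851 windows of the same length 16.1% held it on either strand. A match describes letters and shows no binding.

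The comparison of lens-rich with lens-poor libraries is a description with no test, because a lens gene chose the libraries. The difference of a gene is the mean log2(CPM + 0.1) of the lens-rich libraries minus that of the lens-poor libraries, and this scale understates the change of low genes. A gene is called higher where every lens-rich library lay above every lens-poor library and the difference was at least 1, and lower in the mirrored case. Of 15180 genes that passed the filter on low counts, 32 (0.211%) were higher and 3 (0.0198%) lower. A gene could pass that filter through the libraries of 1 side alone. Without a minimum difference, 65 genes (0.428%) were higher and 31 (0.204%) lower. The median difference of all 15180 genes was -0.002, and the mean levels by side show most of the 32 genes above the cloud that the other genes form along the diagonal.

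**Figure D1:**
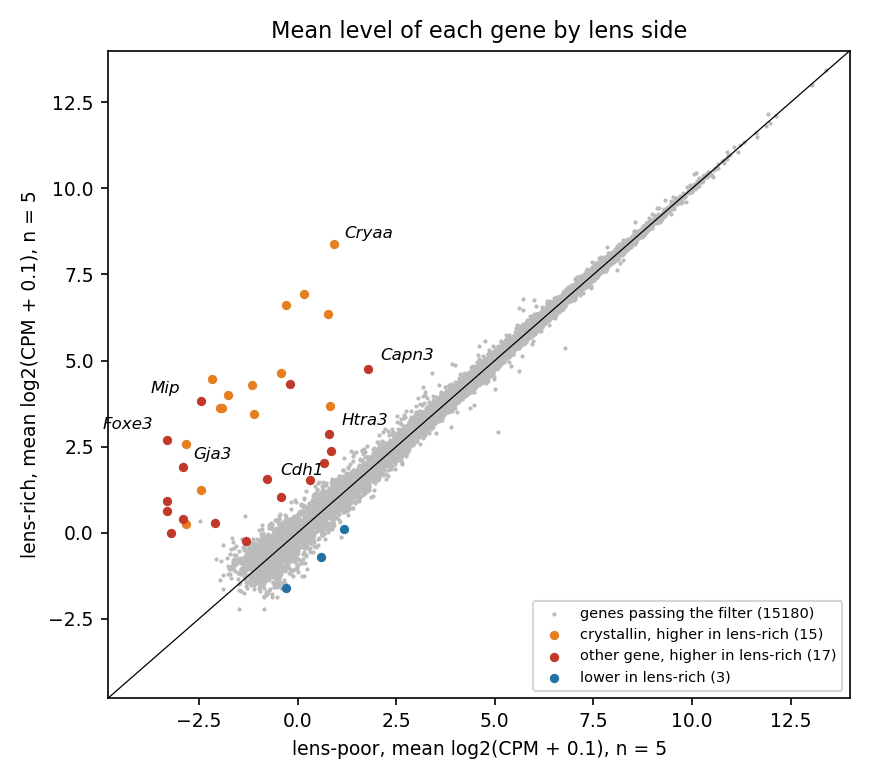
Mean log2(CPM + 0.1) of each of 15180 genes in the 5 lens-rich libraries (vertical) against the 5 lens-poor libraries (horizontal), with the line of equal levels. The 15 crystallins and 17 other genes called higher lie above the line and the 3 genes called lower lie below it.

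The 32 higher genes were 15 crystallins and 17 others. Cryaa is among the 15, and the limits that chose the libraries made it higher in advance. The 16th crystallin listed, Crybb2, was below the filter, with a highest level of 0.427 CPM in TSMF5. Summed, crystallins made 2145, 1048, 896, 597 and 238 CPM in the lens-rich libraries, against 14, 8.90, 9.84, 10.4 and 5.89 CPM in the lens-poor libraries. This is 0.214% of all counts at most (TSMF5) and 0.000589% at least (TSMM6), so lens-rich is a relative name for libraries that are almost wholly other RNA. Counts of the γ-crystallin genes Cryga to Crygf, which lie together on chromosome 1, are uncertain singly, because these are closely similar copies that can share reads.

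Of the 17 genes that are no crystallin, 8 had under 10 counts in every lens-poor library, so their level there rests on few reads. These 8 passed the filter on low counts through lens-rich libraries alone, so they could not have come out lower. The same holds for the crystallins Cryga, Crygb, Crygc and Crygf, so 12 of the 32 higher genes were of this kind. Cryba2, Crygd, Cryge, Crygs, Crygn, Cdh1 and Smco3 also needed lens-rich libraries to pass, so they too could not have come out lower. Among the 17 are Mip, Foxe3, Gja3, Gje1, R3hdml, Chrng, Grifin, Capn3, Cpne7, Cdh1, Htra3, Bfsp1, Leprel1, Mme, Anxa1 and Smco3. When 1 library was left out, the count of such genes grew to 29 without TSCF4 and to 26 without TSMF4. In the map of levels by library they are strongest on the lens-rich side, and not all of them keep the order of Cryaa there.

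**Figure D2:**
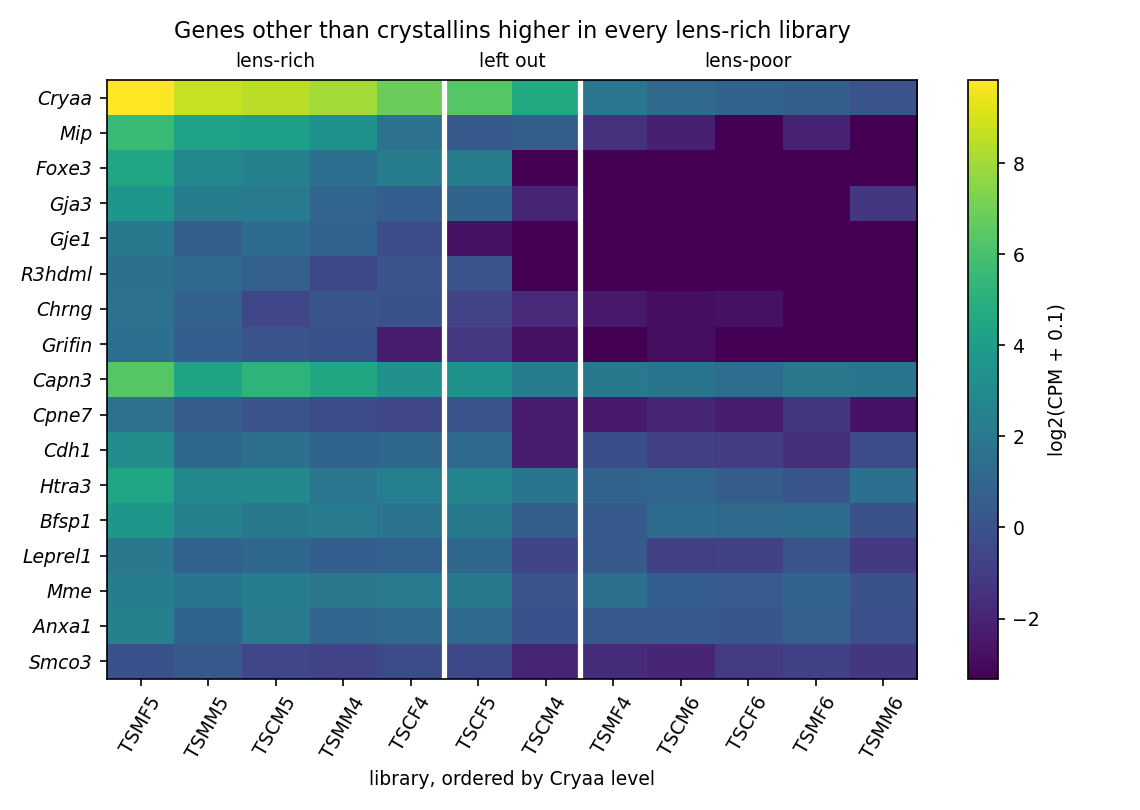
Colour gives log2(CPM + 0.1) of Cryaa, which chose the libraries, and of 16 of the 17 other genes called higher, in each of 12 libraries ordered by Cryaa. The 5 lens-rich libraries are on the left, the 2 left out in the middle and the 5 lens-poor on the right. Foxe3, Gje1 and R3hdml are at 0 in all lens-poor libraries.

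Channel genes of the fibre membrane were among the largest differences. Mip, the water channel of lens fibres (chromosome 10, 128225838 to 128231812, mm10), had 48.8 CPM in TSMF5, 20 in TSMM5, 17.3 in TSCM5, 10.2 in TSMM4 and 3.03 in TSCF4, against 0.266 CPM in TSMF4, 0.126 in TSCM6, 0 in TSCF6, 0.146 in TSMF6 and 0 in TSMM6. The lens-rich libraries kept the order of their Cryaa levels, and the sides did not overlap. The difference was 6.27, resting on 2267 counts in the lens-rich and 12 in the lens-poor libraries.

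Gja3, a gap junction gene of lens fibres (chromosome 14, 57035608 to 57058030), had 11.8, 4.55, 4.22, 1.86 and 1.44 CPM in the lens-rich libraries, against 0 in 4 lens-poor libraries and 0.324 CPM in TSMM6. Those were 6 counts in TSMM6, the library with the least Cryaa, so Gja3 did not follow Cryaa within the lens-poor side. Its difference was 4.81, and on the authors' FPKM values, which are per length, lens-rich means were 9.26 ± 8.15 for Mip and 3.09 ± 2.70 for Gja3 (SD, n = 5). Gje1, another connexin-family gene, had 3.85, 1.5, 2.42, 1.57 and 0.776 CPM in the lens-rich libraries, against 0 in all lens-poor libraries. With the floor of 3 counts in each lens-poor library it was at least 14.1-fold higher. The 8 fibre membrane and junction genes that passed the filter, Mip and Gja3 among them, had a median difference of 0.17. Cdh2, the cadherin of fibres that retina also expresses, had 376 to 445 CPM in lens-rich and 363 to 443 CPM in lens-poor libraries.

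Foxe3, the forkhead gene of the lens epithelium (chromosome 4, 114925147 to 114926013), had 21.7 CPM in TSMF5, 6.99 in TSMM5, 5.43 in TSCM5, 2.72 in TSMM4 and 4.69 in TSCF4, against 0 in all 5 lens-poor libraries. These were 965 counts against 0, and with the same floor Foxe3 was at least 57.9-fold higher. The sides are separate, but TSCF4 stood above TSMM4, out of the order of Cryaa. Cdh1, the cadherin of the epithelium, had 8.63, 2.07, 2.81, 1.76 and 2.07 CPM in the lens-rich libraries, against 0.798, 0.462, 0.400, 0.243 and 0.702 CPM in the lens-poor libraries, a difference of 2.33. TSMF5 alone accounts for the top of that range, and the other 4 lens-rich libraries lay between 1.76 and 2.81 CPM. Of 11 epithelial genes that passed the filter, 3 did not overlap (Foxe3, Cdh1 and the crystallin Cryab) and the median difference was 0.48. Over all 15180 genes, 0.428% were higher without overlap. Foxe3 and Cdh1 needed lens-rich libraries to pass the filter and could not have come out lower. Cryab is counted with the crystallins too, so the 3 genes are no separate support. Pdgfra, the receptor through which the epithelium responds to platelet-derived growth factor, had lens-rich levels of 3.84 to 12.6 CPM and lens-poor levels of 2.90 to 4.27 CPM, which overlap.

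Among 13 lens transcription factor genes, 2 did not overlap, Foxe3 and Pitx3, against 0.428% of all genes higher without overlap. Foxe3 passed the filter through lens-rich libraries alone and is counted in the epithelial list too, so of the 2 only Pitx3 could have come out either way. The median difference of the 13 was 0.08. Pitx3, a homeobox gene needed for lens formation in mice, had 6.97, 4.45, 4.41, 3.34 and 3.55 CPM in the lens-rich libraries, against 1.60, 2.22, 1.85, 2.18 and 3.24 CPM in the lens-poor libraries. Its difference of 0.99 fell just under the limit, and the lens-poor TSMM6, at 3.24 CPM, came close to the lens-rich TSMM4, at 3.34 CPM. Factors that retina also uses overlapped: Maf had 22.6 to 29.6 CPM in lens-rich and 15.3 to 25.6 CPM in lens-poor libraries, Prox1 52.2 to 66.1 and 36.0 to 57.0 CPM, and Pax6 585 to 688 and 567 to 654 CPM.

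Genes of the fibre interior differed in size of change. Capn3, a calpain protease gene with lens-specific transcripts (chromosome 2, 120456019 to 120504913), had 80.8, 20.4, 36.8, 23.4 and 10.1 CPM in the lens-rich libraries, against 3.90, 3.32, 2.60, 3.69 and 3.40 CPM in the lens-poor libraries. The lens-poor libraries barely differ, at 3.38 ± 0.497 CPM (SD, n = 5), and the difference was 2.97. Bfsp1, the filensin gene of the beaded filament, had 12.5, 5.43, 3.95, 4.05 and 3.18 CPM in the lens-rich libraries, against 1.24, 2.39, 2.20, 2.43 and 0.864 CPM in the lens-poor libraries. That difference was 1.54, and 0.61 among the wildtype pools alone. Bfsp1 was 1 of 10 fibre cytoskeleton and chaperone genes without overlap, with a median of 0.14 over the 10. Its filament partner Bfsp2 was below the filter, at 0.641 CPM in TSMF5 and 0.0369 to 0.234 CPM in the other lens-rich libraries. Grifin, a galectin-related gene of lens fibres, had 2.69, 1.40, 1.02, 0.905 and 0.111 CPM in the lens-rich libraries, against 0.042 CPM, a single count, in TSCM6 and 0 in the other 4 lens-poor libraries. The difference was 3.22, which the pseudocount holds down at such low levels. Grifin was 1 of 6 fibre enzyme genes without overlap, with a median of 0.08 over the 6. Over all genes 0.428% were higher without overlap, and 1 gene of 10 or of 6 is too few to be a result about its list. Genes of organelle loss in mature fibres were below the filter: Dnase2b, the lens nuclease, and Lgsn, encoding lengsin, had reads in TSMF5 alone, at 0.256 and 0.0855 CPM.

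Capsule genes were mostly alike on both sides. Nid1, the basement membrane protein nidogen, was 1 of 14 without overlap, with 51.3, 25.3, 32.2, 23.4 and 23.1 CPM in the lens-rich libraries, against 18.8, 13.7, 15.1, 13.7 and 14.6 CPM in the lens-poor libraries. Its difference was 0.97 and the median of the 14 was 0.09. With 0.428% of all genes higher without overlap, 1 gene of 14 is too few to be a result about the capsule. Col4a1, the main capsule collagen, overlapped at 295 to 384 CPM in lens-rich and 272 to 429 CPM in lens-poor libraries. Leprel1, which hydroxylates collagen prolines, had lens-rich levels of 1.43 to 3.55 CPM and lens-poor levels of 0.378 to 1.20 CPM, a difference of 1.44.

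Other higher genes have less specific known roles. Htra3, a secreted serine protease gene, had 21.4, 6.99, 7.19, 3.53 and 5.10 CPM in the lens-rich libraries, against 1.69, 1.85, 1.35, 1.02 and 2.65 CPM in the lens-poor libraries, a difference of 2.08. Mme, the neprilysin gene, stood nearly level over the lens-rich libraries at 4.02 ± 0.560 CPM, against 1.60 ± 0.712 CPM in the lens-poor libraries (SD, n = 5 each), so it did not scale with Cryaa. Anxa1, a phospholipid-binding annexin gene, had a difference of 1.21, Cpne7, a calcium-dependent lipid-binding copine gene, 2.38, and Smco3 1.07. R3hdml had 2.78, 2.22, 1.52, 0.620 and 0.997 CPM in the lens-rich libraries, against 0 in all lens-poor libraries, at least 11.4-fold higher.

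Chrng, the fetal γ subunit gene of the muscle acetylcholine receptor, also followed. It had 2.91, 1.66, 0.586, 1.0 and 0.850 CPM in the lens-rich libraries, against 0.0887, 0.042, 0.0499, 0 and 0 CPM in the lens-poor libraries, a difference of 3.30. Of the other subunits of the receptor only Chrna1 and Chrnb1 were looked at, and they did not follow. Chrna1, below the filter, had 0 to 0.156 CPM in lens-rich and 0.0499 to 0.588 CPM in lens-poor libraries. Chrnb1 had 0.299 to 2.22 CPM in lens-rich and 1.47 to 2.05 CPM in lens-poor libraries. The 4 skeletal muscle genes that passed the filter had a median difference of -0.10, and the muscle list summed to 4.76 to 7.26 CPM in lens-rich and 4.97 to 8.37 CPM in lens-poor libraries.

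Below the limit of 1, another 33 genes that are no crystallin were higher in every lens-rich library. Besides Pitx3 and Nid1 the leading ones were Erbb3, a receptor gene of the epidermal growth factor family (0.96), Ccdc80, encoding a matrix protein (0.94), Wls, needed for Wnt secretion (0.89), Fam198b (0.82), Dgkk, a diacylglycerol kinase gene (0.73), Myo5b, an unconventional myosin gene (0.71), and Pygm, the muscle glycogen phosphorylase gene (0.63). Apart from Nid1, these genes lay below 10 CPM in every library.

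The 2 libraries that the rule left out are set here against the lens-poor libraries, whose low levels did choose the 17 genes, so the counts are a description. Cryaa is 1 of the 15 crystallins counted, and the limits fixed its place above the lens-poor libraries in advance. TSCF5 lay above every lens-poor library for all 17 and for 14 of 15 crystallins, against 11.7% of all genes tested. TSCM4, with less Cryaa, did so for 6 of 17 and for 12 of 15 crystallins, against 9.98% of all genes tested. Among the 6 were Mip at 1.46 CPM, Chrng at 0.208, Capn3 at 4.47 and Htra3 at 3.33. Grifin, also among them at 0.052 CPM, had 1 count in TSCM4, as it had in the lens-poor TSCM6, and lay above it through library size alone. Foxe3, Gje1 and R3hdml were at 0 in TSCM4. Cdh1, at 0.104 CPM, lay below every lens-poor library in TSCM4, and so did Pitx3, which is not among the 17, at 1.2 CPM.

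Libraries with lens RNA were not in one proportion for all genes. For this, the level of a gene minus its lens-poor mean was divided by the same excess of Cryaa and is given per 100 CPM of Cryaa. Over the 5 lens-rich libraries it was 29.8 ± 3.49 for Crybb3, 37.2 ± 5.31 for Cryba1, 24.2 ± 4.46 for Crybb1, 4.30 ± 1.09 for Mip and 1.09 ± 0.227 for Gja3 (SD, n = 5). Foxe3 varied more, at 2.39 in TSMF5, 1.63 in TSMM5, 1.54 in TSCM5, 1.08 in TSMM4 and 4.11 in TSCF4. In TSCF5 it was 5.48 and in TSCM4 it was 0, where 3 counts would give 0.674. TSCF4 and TSCF5 thus had the most Foxe3 per Cryaa and the least Mip, at 2.56 and 1.32, and TSCM4 had no Foxe3 reads. Mip in TSCM4, at 5.83 from 28 counts, was within those 3 counts of the 5.38 in TSMF5. Cdh1 and R3hdml, like Foxe3, were highest per Cryaa in TSCF5 and TSCF4, at 2.06 and 1.36 for Cdh1 and at 1.13 and 0.874 for R3hdml. This was not particular to epithelial genes: in TSCF5 the fibre genes Gja3, at 2.12 against 0.716 to 1.3 over the lens-rich libraries, and Bfsp1, at 2.53 against 0.601 to 1.18, were also above every lens-rich library. So were Nid1, Htra3, Cpne7 and Crygd. Gje1, like Mip, was low in TSCF5, at 0.063 from 1 count, against 0.351 to 0.686 over the lens-rich libraries. The 0 of R3hdml in TSCM4 is not informative, since its lens-rich values of 0.247 to 0.874 surround that floor. TSCF4 and TSCF5 are both wildtype female pools and are near the low end of Cryaa among these libraries, where only the wildtype male TSCM4 has less. Sex, genotype and level were not tested as causes and cannot be told apart here.

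**Figure D3:**
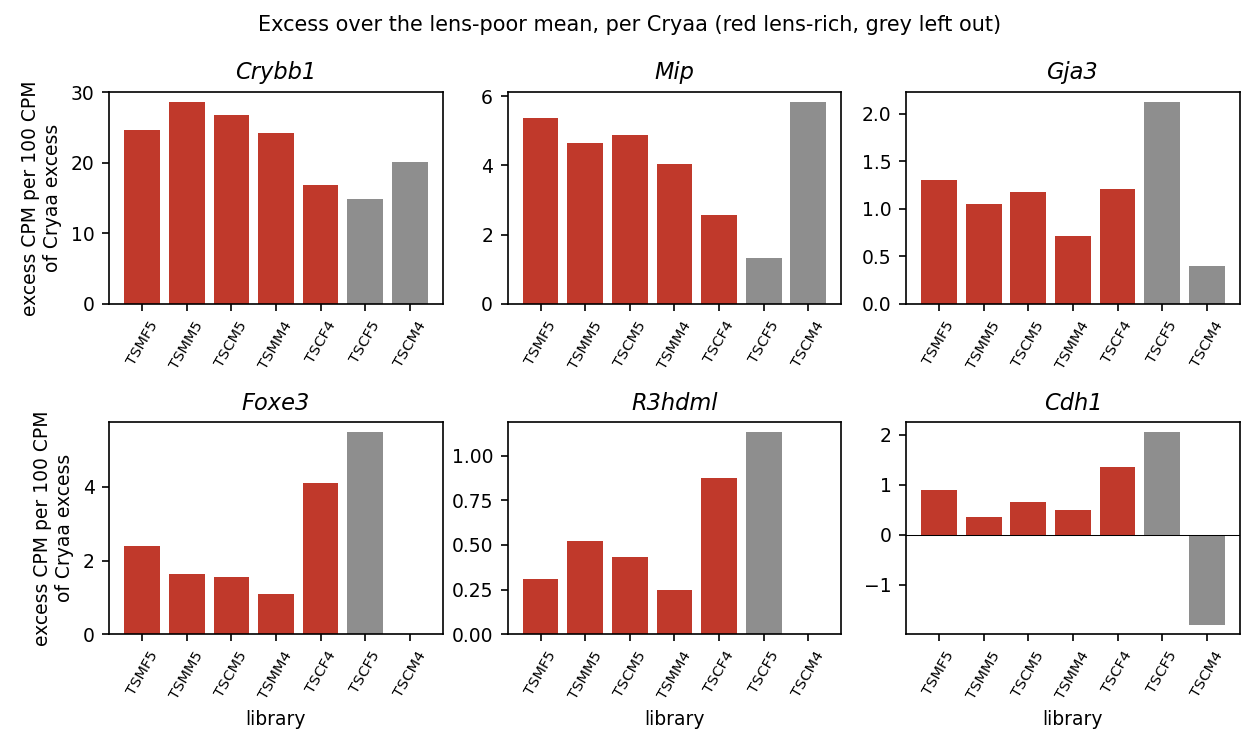
Excess over the lens-poor mean per 100 CPM of Cryaa excess, for 6 genes in the 5 lens-rich (red) and 2 left-out (grey) libraries. Foxe3, R3hdml, Cdh1 and Gja3 are tallest in TSCF5, where Mip is lowest at 1.32. Foxe3 and R3hdml are 0 in TSCM4, and Cdh1 is below the lens-poor mean there.

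The genes most like Cryaa over the 12 libraries, by Pearson correlation of log2(CPM + 0.1) and with a mean of at least 1 CPM, included Mip, Foxe3, Capn3, Gja3, Nid1, Htra3, Cap2, Sel1l and Deptor. The libraries fall into clusters of Cryaa, so correlations are given within the 7 libraries above 10 CPM, as a description that shares their library totals. These 7 are among the 12 that picked the genes, so a high r there is no separate support. How many of all genes reach such values was not counted. There r was 0.96 for Capn3 (Spearman's rho 0.86), 0.96 for Gja3 (0.96), 0.94 for Mip (0.96), 0.87 for Foxe3 (0.89) and 0.81 for Nid1 (0.86). Without TSCM4 and TSMF5, the libraries farthest from the median, r was 0.86 for Capn3, 0.85 for Gja3 and 0.99 for Mip. For Foxe3 it was 0.32, for Htra3 0.25, for Cap2, an actin-regulating gene, 0.03, and for Deptor, an inhibitor gene of mTOR signalling, 0.37, so these relations rest on those libraries. For Nid1 it was 0.59. Sel1l, a gene of protein degradation at the endoplasmic reticulum, had an r of 0.86 without TSCM4 and TSMF5. Its levels were 128 to 140 CPM in lens-rich and 122 to 126 CPM in lens-poor libraries, a difference of 0.11.

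Markers of other eye tissues were read in the same way. Over 7 lists (pigment epithelium, ciliary margin and stalk, cornea and surface ectoderm, periocular mesenchyme and vessels, skeletal muscle, blood, microglia) 1 of 77 genes was without overlap, Foxc1, a gene of periocular mesenchyme, at 1.91 to 2.17 CPM in lens-rich and 1.35 to 1.89 CPM in lens-poor libraries. Over all 15180 genes 0.428% were without overlap as higher and 0.204% as lower, so a count of 1 in 77 is near that background and is no result about these tissues. Their list medians ran between -0.23, for cornea and surface ectoderm, and 0.16, for periocular mesenchyme and vessels. Pigment epithelium summed to 81.9 to 90.1 CPM in lens-rich and 68.8 to 95.2 CPM in lens-poor libraries. Krt5 and Krt14, keratin genes of surface epithelium, were below the filter, at up to 0.899 CPM in any lens-rich library.

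Retinal genes had list medians near that of all genes, between -0.05 and 0.07. Over 6 lists (progenitors, ganglion cells, intrinsically photosensitive ganglion cells, amacrine and horizontal cells, photoreceptor precursors, neurogenic precursors) 0 of 77 genes were without overlap in either direction, which is also near the background of 0.428% and 0.204%. Pou4f2, a ganglion cell factor gene, had 148 ± 15.4 CPM in lens-rich and 139 ± 13.4 CPM in lens-poor libraries, and Crx, a photoreceptor factor gene, had 93.2 ± 5.21 CPM in lens-rich and 93.6 ± 12.2 CPM in lens-poor libraries (SD, n = 5 each). These retina markers were thus present on both sides, with levels that overlapped. The 7 measured genes named after crystallins but expressed in other tissues, such as Crym and Cryz, had a median difference of -0.07, against -0.002 over all genes.

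**Figure D4:**
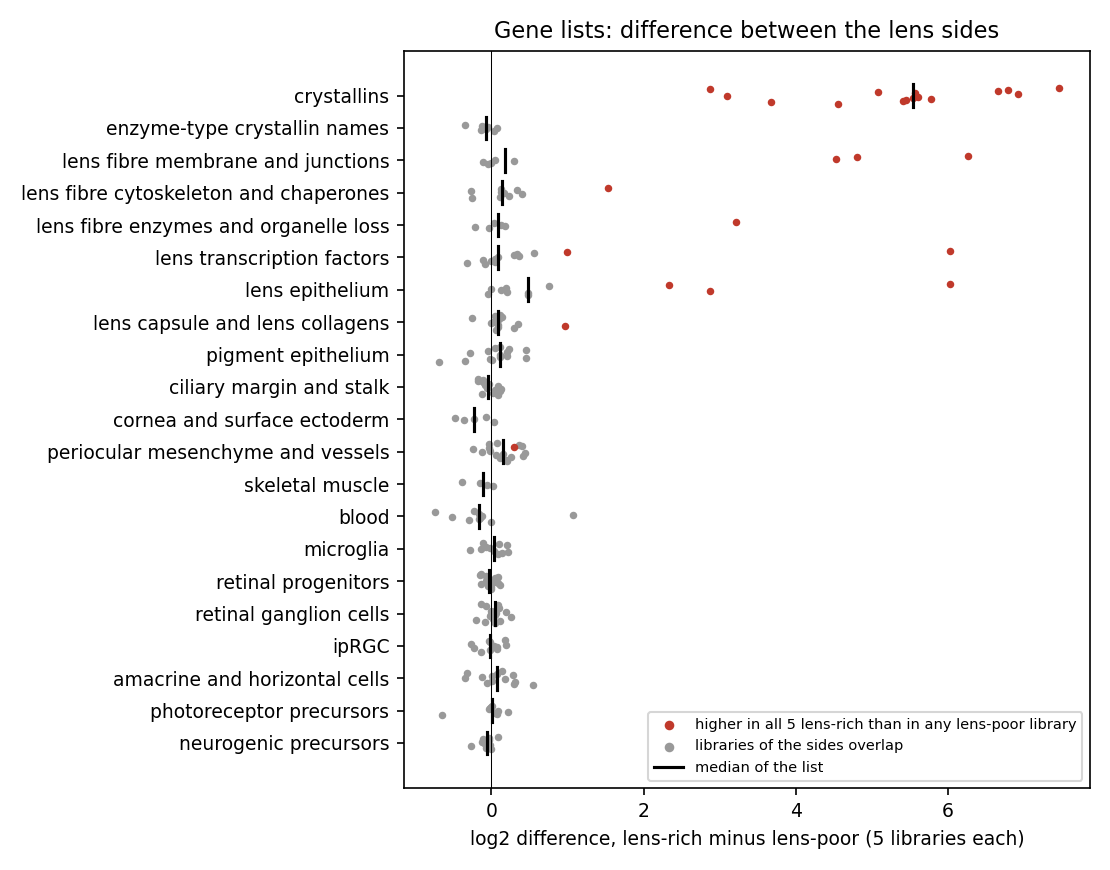
Difference (log2, lens-rich minus lens-poor, 5 libraries each) of every gene that passed the filter, by list, with the median of the list as a bar. Red points are genes above all lens-poor libraries in all lens-rich ones. The 15 crystallins are all red, few genes of the other lens lists are, and Foxc1 is the 1 red point outside the lens lists.

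Lower genes were few and small. The 3 called lower were Foxf2, a forkhead gene of mesenchyme around vessels, the histone gene Hist1h1b and the transcript C130046K22Rik. Hist1h1b had 0.0477 to 0.43 CPM in lens-rich and 0.488 to 1.05 CPM in lens-poor libraries. It passed the filter through lens-poor libraries alone, so it could not have come out higher. Foxf2 had 0.214, 0.569, 0.664, 0.620 and 0.665 CPM in the lens-rich libraries, against 1.42, 1.51, 1.35, 0.777 and 2.38 CPM in the lens-poor libraries, a difference of -1.29. Leaving out 1 library gave 6 lower genes without TSMF5, 10 without TSMM5, 9 without TSMM4, and 7 without TSCM5, TSMF4, TSCM6 or TSMF6. Another 28 genes were lower by less than 1. Among them Zfp46, a zinc finger gene, was the most abundant named, at 28.7 to 38.6 CPM in lens-rich and 46.3 to 54.8 CPM in lens-poor libraries (-0.55), and Phf19, a Polycomb-associated gene, had 2.47 to 3.44 and 4.04 to 5.29 CPM (-0.63). The other lower genes named by the rule were Map3k6 (-0.77), Nfatc2 (-0.76), Prox2 (-0.70), Gzmm (-0.56), Dedd (-0.56), Zbtb8a (-0.53), Synpo2 (-0.50), Zfp473 (-0.50), Ccdc84 (-0.44), Caln1 (-0.42), Dnaja4 (-0.37) and Klhl3 (-0.37).

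Genotype comes from the labels, so mutant and wildtype pools could be tested within and across the lens sides. Eomes, the gene of Tbr2 and the target of the mutation (its counts include any exons outside the floxed part), had 15.2, 21.2 and 24.9 CPM in mutant lens-rich libraries, against 76.1 and 53.8 CPM in wildtype lens-rich libraries. In lens-poor libraries it had 9.62, 16.1 and 27.4 CPM in mutant, against 65.5 and 64.6 CPM in wildtype pools. Every mutant pool was below every wildtype pool on both sides. With lens side and sex as terms over the 10 libraries, Eomes fell by 1.84 on the log2 scale (SE 0.17, Benjamini-Hochberg adjusted p = 0.0101 by edgeR's quasi-likelihood test), lower in 6 of 6 mutant pools. It was the 1 gene called of 15180 (0.00659%), while 405 had an unadjusted p under 0.05 and DESeq2 called 15 genes. These 405 are a smaller share of the genes tested than the 0.05 that would fall there with no change in any gene. The same holds for such counts given below within each side and for the interaction. Without TSMF5, TSMF6, TSMM5, TSCF4, TSCF6 or TSCM5 the call was lost, at log2 fold changes of -1.84, -1.87, -1.81, -1.82, -1.70 and -1.87. Without TSMM6 the test also called Irx1 and Synm. Over 18 alternatives for Eomes, edgeR or DESeq2 gave log2 fold changes between -1.98 and -1.70 and an adjusted p between 4.51e-21 and 0.0992.

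Within the lens-rich libraries the log2 fold change of Eomes was -1.81 (SE 0.25, edgeR adjusted p = 0.305), and within the lens-poor libraries -1.88 (SE 0.25, edgeR adjusted p = 0.669), neither past the threshold. Their difference was 0.07 (SE 0.36, edgeR adjusted p = 1). DESeq2 called Eomes on both sides, and edgeR called it within the lens-rich side without TSMF4, at -1.79.

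Within the lens-rich libraries 1 gene of 15180 (0.00659%) was called, Cacna1i, a T-type calcium channel gene (chromosome 15, 80287238 to 80398279), with 187 at an unadjusted p under 0.05. It had 154, 158 and 102 CPM in mutant lens-rich libraries, against 6.56 and 6.91 CPM in wildtype lens-rich libraries. In lens-poor libraries it had 151, 179 and 123 CPM in mutant, against 45.2 and 102 CPM in wildtype pools. In the wildtype pools left out it had 6.96 CPM (TSCF5) and 29.0 CPM (TSCM4). The mutant pools are alike on both sides, and the wildtype pools spread from 6.56 to 102 CPM over the 6 of them. The log2 fold change was 4.39 within the lens-rich libraries (SE 0.30, edgeR adjusted p = 0.00253), higher in 3 of 3 mutant pools, and 1.02 within the lens-poor libraries (SE 0.25, edgeR adjusted p = 0.975). The interaction for Cacna1i was 3.37 (SE 0.36, edgeR adjusted p = 0.107), not past the threshold. With a term for the mt-Nd6 set, with no filter on low counts, or without TSCM6, edgeR did call this interaction, and so did DESeq2. Without TSCF4 or TSCM5 the lens-rich call was lost, at 4.18 and 4.67, in fits where the 1 wildtype lens-rich library left is assumed to vary like the others.

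Within the lens-poor libraries the test called 0 genes (0.0%), while edgeR gave 357 an unadjusted p under 0.05 and DESeq2 called 4 (Eomes, Gja3, Igf1 and Rgs4). The interaction of genotype with lens side called 0 genes (0.0%), while edgeR gave 173 an unadjusted p under 0.05 and DESeq2 called 2 (Cacna1i and Gja3). The DESeq2 calls of Gja3 rest on the 6 counts of TSMM6.

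**Figure D5:**
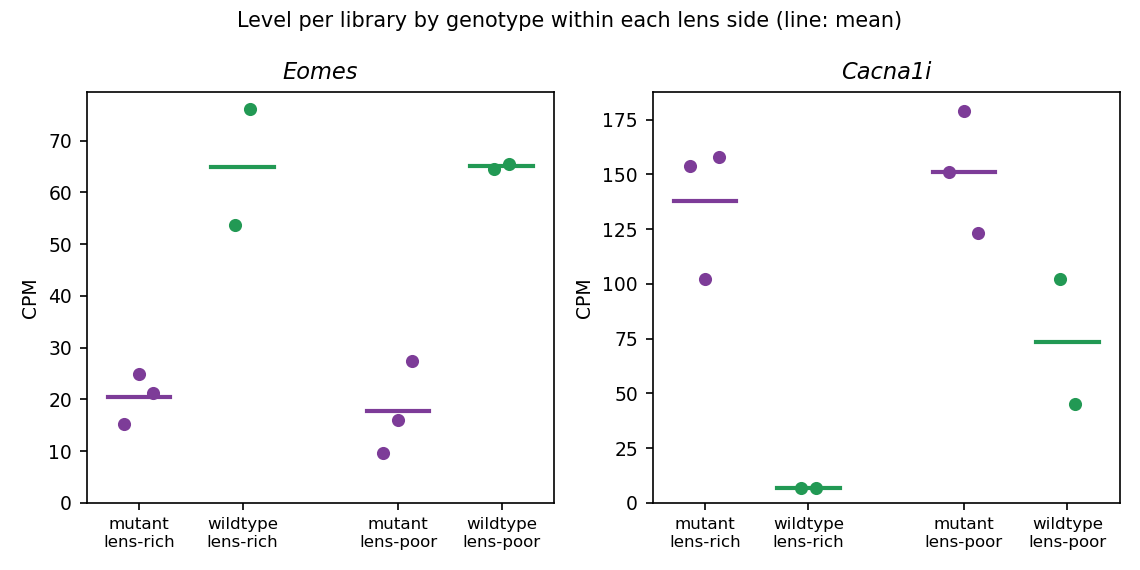
CPM of Eomes and Cacna1i in each of 10 libraries, mutant left of wildtype within the lens-rich and the lens-poor side, with the mean as a line. Eomes runs between 9.62 and 27.4 CPM in mutant and between 53.8 and 76.1 CPM in wildtype libraries. Cacna1i is at 6.56 and 6.91 CPM in the 2 wildtype lens-rich libraries and at 45.2 CPM or more in the others.

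The authors' deposited table for mutant against wildtype held 15 genes past an adjusted p of 0.05. Their differences between the lens sides ran between -0.78 and 0.21. Among them Eomes had a difference of 0.17.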

How the data were processed

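RNA sequencing of 12 retina pools gave the data. The submitters' processing notes name CASAVA for base calling, STAR 2.5 for alignment to mm10, HTSeq 0.6.1 for counting per gene and DESeq2 for the comparison of groups. Neither the strand setting of the counting nor the annotation release is given in the sources used here, so overlapping genes on opposite strands cannot be told apart. The authors deposited raw read counts per gene and library, 19954 genes in the table of both sexes, and FPKM values scaled by gene length and library total. Their log2 fold changes, p-values and adjusted p-values were deposited in the same table. A further 12 per-library columns were not mapped or used.

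CPM were counts over the column sum. Genes passing edgeR's filterByExpr by genotype, 15180, entered every comparison. The difference between lens sides used log2(CPM + 0.1) and no test. Genotype was tested with edgeR 4.0.16 (limma 3.58.1, R 4.3.3), TMM scaling, two-sided quasi-likelihood test, Benjamini-Hochberg adjustment over all genes and a threshold of 0.05, with sex as a term. DESeq2 1.42.0 was an alternative. The fits were tested on simulated counts. Where p-values are given they measure the spread between pools. A fold against libraries at 0 is a lower bound with 3 counts set in each of them, which covers counting error only.

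The libraries, gene lists and named genes were chosen with earlier results of these data known. Named were Eomes, crystallins, up to 25 higher and 15 lower genes with the largest difference without overlap and a mean of at least 1 CPM in the higher side (predicted genes and pseudogenes skipped), list members without overlap, genes called in the genotype tests, and the 10 genes most like Cryaa. Hist1h1b, C130046K22Rik and Smco3, and genes given for contrast such as Chrna1, Pdgfra, Maf or Col4a1, were chosen after their values were seen. Promoter windows came from RefSeq on GRCm38.p6, for 14 of 15 crystallins and 11 of 17 other higher genes. Some genes that the rule names are not reported here.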

Additional observations from a re-analysis of the deposited data

Results flagged for a closer look

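Within a side of 5 libraries, 1 library stood far from the other 4 in 8 of 123 sides examined, where chance flags about 1 in 20 sides of normally spread values. Among lens-poor libraries these were Gja3 in TSMM6 at 0.324 CPM, Grifin in TSCM6 at 0.042 CPM, Wls in TSMM6 at 0.918 CPM and Myo5b in TSCM6 at 0.714 CPM. Among lens-rich libraries they were Cdh1 in TSMF5 at 8.63 CPM, Foxf2 in TSMF5 at 0.214 CPM, Dedd in TSCF4 at 1.81 CPM and Dnaja4 in TSCF4 at 1.63 CPM. The values of Gja3 and Grifin are 6 counts and 1 count, beside 0 in the other lens-poor libraries, and such a side is flagged by construction. Most genes examined were picked for having no overlap, so the rate of 1 in 20 does not carry over to these sides.

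The 2 libraries outside the comparison also held lens RNA above the lens-poor level, with Cryaa at 82.6 CPM in TSCF5 and at 25.1 CPM in TSCM4.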

How the results depend on the processing

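Of 989 alternatives of the log2 difference of 43 named genes, 934 moved it by less than the spread between libraries and 55 by more. The sign of genes without overlap cannot turn when libraries are left out, so it is no sign of stability. As reported, 32 genes were higher (17 of them no crystallin, given in brackets from here on) and 3 lower. The counts were 27 (12) and 0 with a pseudocount of 1, 36 (21) and 3 with 0.02, and 42 (27) and 8 with no filter on low counts. With 1 limit over 12 libraries they were 29 (16) and 2 at 50 CPM, and 18 (6) and 0 at 20 CPM. Wildtype pools alone gave 93 (78) and 94, mutant pools alone 73 (58) and 31, the mt-Nd6 high set 68 (53) and 26, and the low set 122 (107) and 115, where fewer libraries leave more genes without overlap. With no minimum difference they were 65 (50) and 31, and with a minimum of 2 they were 27 (12) and 0. TMM scaling gave 4 genes lower. Leaving out each library in turn gave 33 to 44 higher, 18 to 29 no crystallin and 3 to 10 lower.

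For genotype, DESeq2 called 15, 4, 4 and 2 genes (with the lens term, within lens-rich, within lens-poor, interaction), where edgeR called 1, 1, 0 and 0. With no filter edgeR called 2 within lens-rich and 1 for the interaction, Cacna1i. With an mt-Nd6 term it called 2 with the lens term and 1 for the interaction, again Cacna1i. With 12 libraries it called 3, both with a Cryaa covariate and with no lens term. Leaving out each library in turn gave 0 to 3 with the lens term, 0 to 2 within lens-rich, 0 within lens-poor and 0 to 1 for the interaction. Deviations of same-numbered mutant and wildtype pools correlated at -0.251, 0.00954 and 0.335 in males (replicates 4, 5 and 6). In females they correlated at 0.23, 0.256 and 0.169. These values do not settle whether the numbers pair the pools. With the replicate block edgeR called 1, 1, 0 and 0 genes, with Eomes at -1.71. With the lens term, edgeR gave 1256 genes an unadjusted p under 0.05 with this block and 405 without it. The interaction of Eomes, at 0.07, turned to -0.124 with the block, and over the fits without 1 library it ran from -0.388 to 0.388, with reversals of -0.152, -0.0211 and -0.388. The cause of these changes was not tested. Depth limits the genes under 10 counts in lens-poor libraries, whose differences move with the pseudocount.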
